A study of Oryza sativa with 12 samples.

Results

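Meiosis genes were followed here in rice anthers as 10 loci chosen by name for their known roles in rice meiosis, out of 55985 gene models in the table: MEL1 (LOC_Os03g58600), PAIR1 (LOC_Os03g01590), PAIR2 (LOC_Os09g32930), PAIR3 (LOC_Os10g26560), OsREC8 (LOC_Os05g50410), OsDMC1A (LOC_Os12g04980), OsDMC1B (LOC_Os11g04954), ZEP1 (LOC_Os04g37960), MER3 (LOC_Os02g40450) and HEI10 (LOC_Os02g13810). The rule names loci and uses no expression value, but the members were chosen with earlier results of these data known. The study measured RNA by sequencing in anthers of the cold-tolerant cultivar Erythroceros Hokkaido (ERY) and the cold-susceptible cultivar Sant'Andrea (S.AND). Plants spent 1 night at 8 °C (COLD) or at 24 °C (CONTROL), which gave 4 groups of 3 biological replicates, 12 samples in all. Every group carried the same tissue label, post-meiotic anthers, and nothing but cultivar and night temperature set the groups apart in the labels. The paper reports, however, that part of the cold-treated S.AND spikelets were whitish and held damaged anthers. Whitish spikelets were not seen in controls or in cold-treated ERY. Only anthers of normal anatomy were used, so S.AND COLD was a selected part of its spikelets. Each replicate pooled the anthers of several plants, and the anthers came from spikelets in the middle of the panicle. The stage was set from the distance between the auricles of the upper leaves. The paper describes that distance as matched to the same post-meiotic stage for each cultivar, with the same window given for both. Its sections of anthers taken before that window, at equal distance, place S.AND slightly later in stage than ERY. The question asked of these genes was how much meiotic RNA the 4 groups held, since such RNA also reports on anther stage.

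Meiosis turns diploid pollen mother cells into haploid microspores, and it does so through breaks made in the DNA, repair of those breaks on the homologous chromosome, and alignment of the homologues along a protein axis. The genes form an ordered set of roles: entry of germ cells into meiosis, building of the axis and start of recombination, strand exchange, synapsis, and the choice of sites that become crossovers. In an anther, these genes act in the pollen mother cells, whereas the surrounding tapetum feeds the germ cells and later supplies the material of the pollen wall.

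The values are the authors' normalized means of each group, in reads per kilobase of gene model scaled by total reads (RPKM). They are a level per length that may be compared between genes. Each column summed to about 1000000, so a value is a share of a fixed total and may differ from plain RPKM. The table gives no value per sample, so no mean has an SD and no difference below was tested. The study states a minimum number of reads for every sample, but the depth of each sample was not analysed here; ratios of means are given as descriptions, and a ratio counts as past the threshold at 2-fold where the higher mean was 1 RPKM or more. The columns were alike in scale: 22936 to 23508 genes reached 1 RPKM, the median of those genes lay between 13.8 and 14.3 RPKM, and the 10 highest genes took 8.66% to 11.0% of a column. The 5 stamen identity genes lay between 58.7 and 1685 RPKM, and 3 loci listed as pistil and ovule genes between 0.413 and 14.1 RPKM. The 3 loci listed as lemma and palea genes lay between 1.43 and 94.3 RPKM. Of these, OsMADS14 had 62.5 to 94.3 RPKM, inside the range of the stamen genes. OsMADS1 had 10.4 and 13.7 RPKM in ERY (CONTROL, then COLD) and 4.79 and 4.54 RPKM in S.AND. The summed level of those 3 pistil and ovule loci in ERY was 14.9 RPKM under CONTROL and 23.3 under COLD. For S.AND the same pair was 9.43 and 4.30 RPKM. Most of the ERY sum was DL, at 12.4 RPKM under CONTROL and 14.1 under COLD. After the cold night OsMADS13 was 4.02-fold higher in ERY, whereas in S.AND it was 2.34-fold lower. OsMADS21 was 2.89-fold higher in ERY COLD and stayed under 1 RPKM in S.AND. DL was 2.17-fold lower in S.AND COLD. Under COLD all 3 loci were lower in S.AND than in ERY, by 4.58-fold to 5.64-fold. The part of these loci in the differences between groups was not tested.

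All 10 meiosis genes were detected in all 4 groups, and 9 of them stayed above 1 RPKM throughout; ZEP1 in S.AND CONTROL, at 0.838 RPKM, was the exception. Most were low: 7 or 8 of the 10 had under 10 RPKM in a given group. Their summed level was 106 and 107 RPKM in ERY (CONTROL, then COLD) and 91.4 and 107 RPKM in S.AND, near 0.01% of each column. These are whole anthers labelled post-meiotic, so which cells held this RNA is not known. Fewer such cells and less RNA per cell cannot be told apart. The order of the 5 highest genes was PAIR2, OsDMC1A, OsREC8, HEI10 and MEL1 in 3 groups, while in S.AND COLD OsREC8 stood above OsDMC1A. Whether neighbours in that order differ beyond replicate spread could not be asked of means.

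**Figure D1:**
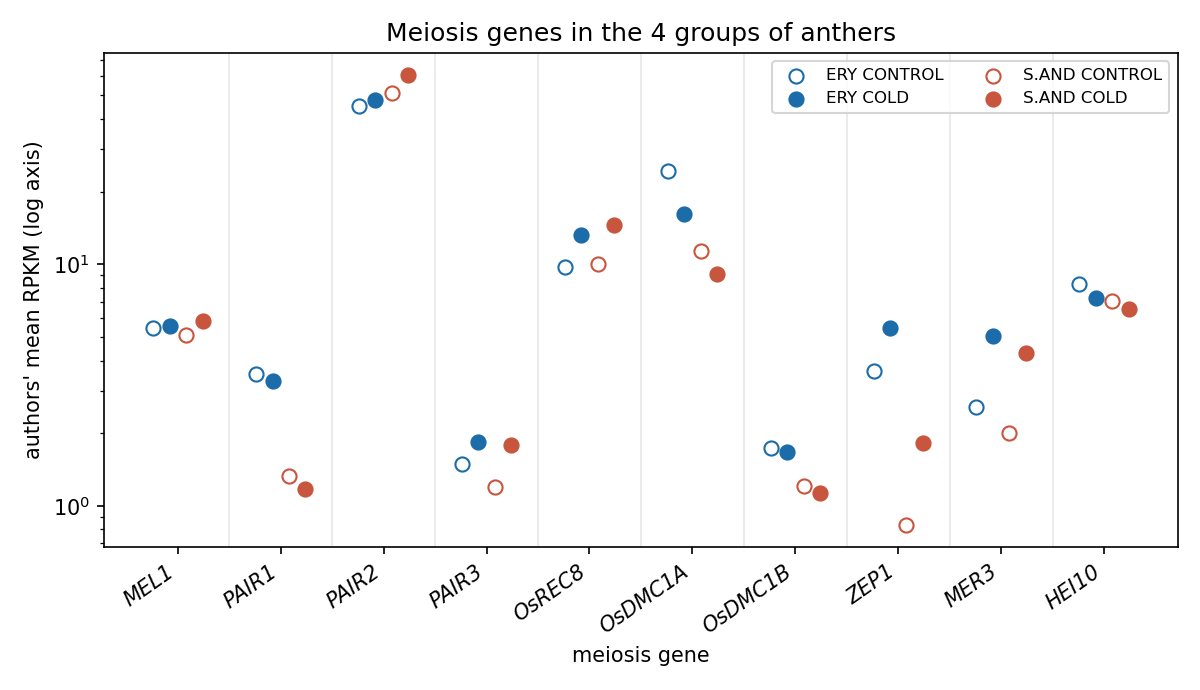
Mean RPKM of each meiosis gene (log axis) in the 4 groups, with open circles for CONTROL and filled circles for COLD, blue for ERY and red for S.AND; each point is the authors' mean of 3 samples and has no error bar. PAIR2 is highest in every group at 45.4 to 60.5 RPKM, and ZEP1, PAIR1 and OsDMC1A show the widest gaps between blue and red.

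MEL1 encodes an Argonaute protein of germ cells that binds small RNAs before and during early meiosis. Its means were 5.43 RPKM (CONTROL) and 5.57 RPKM (COLD) in ERY and 5.12 RPKM (CONTROL) and 5.83 RPKM (COLD) in S.AND. The 4 groups were close together, with log2 ratios of COLD over CONTROL of 0.04 in ERY and 0.19 in S.AND. It was the only meiosis gene whose cultivar ratio changed sign with temperature, from -0.09 in CONTROL to 0.06 in COLD on the log2 scale.

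The chromosome axis gene PAIR2, which encodes a HORMA domain protein required for pairing of homologues, had the highest level of the set. Its means were 45.4 RPKM under CONTROL and 48.1 under COLD in ERY, with 51.1 and 60.5 RPKM for the same pair in S.AND. PAIR2 alone made up 42.8% (CONTROL) and 44.7% (COLD) of the summed level of the set in ERY, against 55.9% and 56.6% in S.AND. S.AND was thus on the high side at both temperatures, by 1.13-fold in CONTROL and 1.26-fold in COLD, and no ratio of PAIR2 reached 2-fold. A second axis gene, PAIR3, which encodes a coiled-coil protein needed for loading of PAIR2, was near the bottom of the order at 1.49 and 1.84 RPKM in ERY (CONTROL, then COLD) and 1.20 and 1.79 RPKM in S.AND. PAIR3 was 1.23-fold higher after the cold night in ERY and 1.49-fold higher in S.AND.

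OsREC8 encodes the meiotic cohesin subunit that holds sister chromatids together. Its means were 9.74 and 13.2 RPKM in ERY (CONTROL, then COLD) and 10.1 and 14.6 RPKM in S.AND. COLD was above CONTROL by 1.35-fold in ERY and 1.45-fold in S.AND, and both COLD means lay above both CONTROL means. At a given temperature the cultivars lay within 1.11-fold of each other. For how many of all genes the means separate in such a way was not counted, here or for PAIR1 and ZEP1 below.

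PAIR1 encodes a coiled-coil protein needed for the breaks that start recombination. Its means were 3.53 RPKM (CONTROL) and 3.28 RPKM (COLD) in ERY and 1.34 RPKM (CONTROL) and 1.17 RPKM (COLD) in S.AND. Both S.AND means lay below both ERY means. PAIR1 was 2.64-fold lower in S.AND than in ERY in CONTROL and 2.79-fold lower in COLD, whereas the cold night went with log2 ratios of -0.11 in ERY and -0.19 in S.AND.

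Strand exchange on the homologue is carried out by the recombinase DMC1, for which rice holds a pair of near-identical copies. OsDMC1A, the copy with nearly all of the signal, had means of 24.3 RPKM under CONTROL and 16.1 under COLD in ERY, with 11.4 and 9.16 RPKM for the same pair in S.AND. COLD was below CONTROL by 1.51-fold in ERY, the lowest cold ratio of the 10 genes in that cultivar, and by 1.25-fold in S.AND. Between cultivars it was 2.13-fold lower in S.AND in CONTROL and 1.76-fold lower in COLD. OsDMC1B stayed between 1.13 and 1.73 RPKM, with 1.73 and 1.68 RPKM in ERY (CONTROL, then COLD) and 1.21 and 1.13 RPKM in S.AND. How short reads were shared out between copies this alike is uncertain, so the sum is the safer quantity. The sum of both copies was 26.0 RPKM (CONTROL) and 17.8 RPKM (COLD) in ERY and 12.6 RPKM (CONTROL) and 10.3 RPKM (COLD) in S.AND, the same order of groups as for OsDMC1A. The ratio of OsDMC1A to OsDMC1B was 14.0 and 9.59 in ERY (CONTROL, then COLD), and 9.40 and 8.08 in S.AND.

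ZEP1 encodes the transverse filament of the synaptonemal complex, the structure that joins aligned homologues. Its means were 3.63 RPKM under CONTROL and 5.43 under COLD in ERY, with 0.838 and 1.82 RPKM for the same pair in S.AND. Both ERY groups were above both S.AND groups, and within each cultivar COLD was above CONTROL. ZEP1 was 4.33-fold lower in S.AND in CONTROL and 2.98-fold lower in COLD, the widest cultivar ratios of the 10 genes. The cold night went with a 1.495-fold higher level in ERY and a 2.18-fold higher level in S.AND.

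Crossover sites are fixed by a group of proteins that includes the DNA helicase MER3 and the RING finger protein HEI10. MER3 had means of 2.57 and 5.06 RPKM in ERY (CONTROL, then COLD) and 2.0 and 4.30 RPKM in S.AND. COLD was above CONTROL by 1.97-fold in ERY, just short of the threshold, and by 2.15-fold in S.AND. HEI10 differed little, at 8.31 RPKM (CONTROL) and 7.26 RPKM (COLD) in ERY and 7.05 RPKM (CONTROL) and 6.55 RPKM (COLD) in S.AND, and its cold ratios were 1.14-fold lower in ERY and 1.08-fold lower in S.AND. The MER3 and HEI10 means therefore lay on opposite sides of their controls in both cultivars.

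For the cold night, 0 of the 10 meiosis genes passed 2-fold in ERY, where 8.19% of 23936 genes were higher and 6.66% lower by that measure. In S.AND 2 were higher, ZEP1 and MER3, and 0 were lower, against 5.42% and 9.22% of 24203 genes. With RPKM + 1 in place of RPKM, neither passed and the count was 0, but the share of all genes was not counted in that setting. The median log2 ratio of the 10 genes was 0.06 (ERY) and 0.22 (S.AND), and that of all genes was 0.03 and 0.00. Both ZEP1 and MER3 lay below 10 RPKM, a range in which 2-fold or higher ratios were found for 6.67% of genes in S.AND and 11.4% in ERY.

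The direction of the cold ratio was the same in ERY and S.AND for all 10 genes. MEL1, PAIR2, PAIR3, OsREC8, ZEP1 and MER3 were above their controls, and PAIR1, OsDMC1A, OsDMC1B and HEI10 below them. The ERY and S.AND ratios share no samples, and 76.7% of 22639 genes had the same direction in both cultivars. For genes under 10 RPKM in every group, the level of most of the 10, it was 72.6% of 7623. The difference between the cold ratios, S.AND minus ERY on the log2 scale, ran from -0.08 for PAIR1 to 0.54 for ZEP1 with a median of 0.14. It was above 0 for 8 of the 10 genes, against 48.3% of all genes, whose quartiles were -0.29 and 0.16. Among genes under 10 RPKM in every group it was above 0 for 38.2%, with quartiles of -0.53 and 0.18. Whether the cultivars differ in this respect was not tested.

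**Figure D2:**
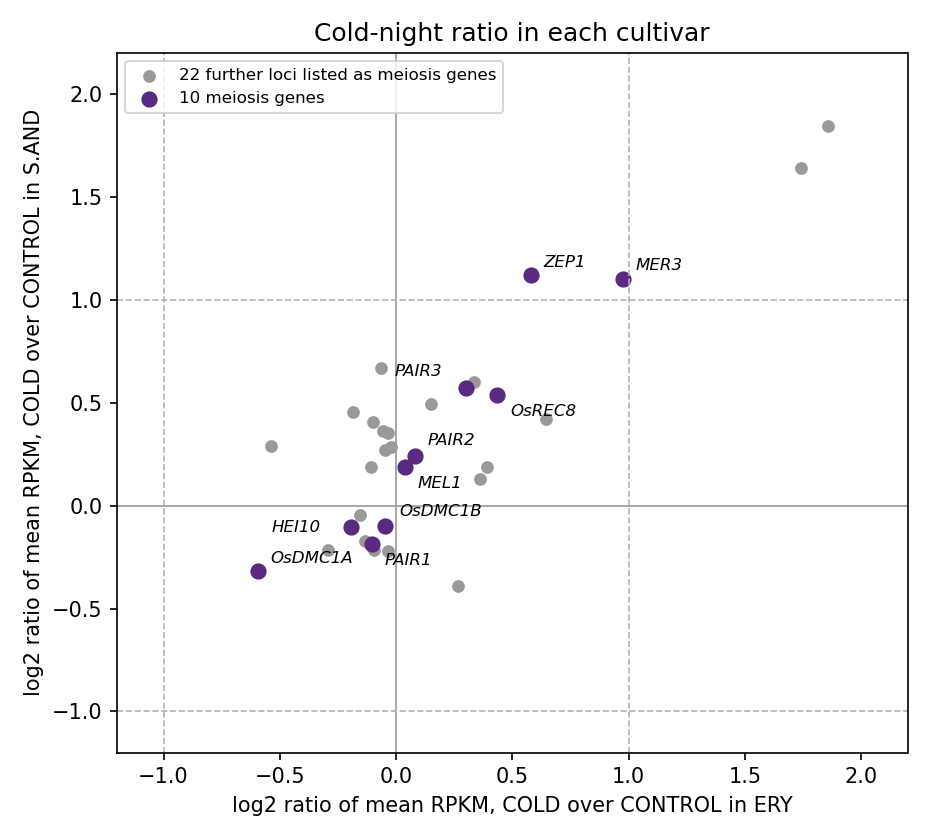
Log2 ratio of mean RPKM, COLD over CONTROL, in ERY (x axis) and in S.AND (y axis) for the 10 meiosis genes (purple, named) and 22 further loci listed as meiosis genes (grey), with dashed lines at 2-fold. All 10 purple points lie in the lower left or upper right part of the plot, and ZEP1 and MER3 are the only named genes above the upper dashed line, at 1.12 and 1.10 in S.AND.

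Between cultivars, in CONTROL 3 of the 10 genes were at least 2-fold lower in S.AND, PAIR1, OsDMC1A and ZEP1, and 0 were higher, against 7.90% lower and 11.2% higher of 24784 genes. In COLD 2 were lower, PAIR1 and ZEP1, and 0 were higher, against 6.91% lower and 6.85% higher of 24244 genes. With RPKM + 1, PAIR1 no longer passed at either temperature, and ZEP1 did at both, which left 2 genes in CONTROL and 1 in COLD. With at least 5 RPKM required of the higher mean, 1 gene passed at each temperature, and not the same one. It was OsDMC1A of 5 genes left in CONTROL and ZEP1 of 7 in COLD. The share of all genes was not counted with RPKM + 1 or at 5 RPKM. The median log2 ratio of S.AND over ERY was -0.34 in CONTROL and -0.19 in COLD for the 10 genes, and 0.04 and 0.00 for all genes. The CONTROL median was -0.086 over the 5 genes left at 5 RPKM. In CONTROL 8 of the 10 ratios were below 1, the others being PAIR2 and OsREC8. Of genes between 1 and 10 RPKM, 12.4% (CONTROL) and 11.6% (COLD) were lower in S.AND by 2-fold or more. The CONTROL and COLD ratios come from different samples, and 9 of the 10 genes kept the direction of the cultivar ratio. The share was 75.8% of 23314 genes, and 74.1% of the 8103 genes under 10 RPKM in every group.

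A further 22 loci listed as meiosis genes from general knowledge, for which the table gives no names, were set beside the 10. After the cold night 2 of them were at least 2-fold higher in each cultivar, of 21 loci past the filter in ERY and 20 in S.AND, and 0 were lower. The shares of all genes that were higher were 8.19% in ERY and 5.42% in S.AND, and those lower were 6.66% and 9.22%. LOC_Os12g38460, described in the supplement of the study as a protein with an RNA recognition motif, had 6.75 RPKM under CONTROL and 24.5 under COLD in ERY, with 12.0 and 43.3 RPKM for the same pair in S.AND. That is 3.63-fold higher in ERY and 3.59-fold higher in S.AND, a larger ratio than that of any of the 10 genes. LOC_Os03g12414 had 1.06 and 3.54 RPKM in ERY (CONTROL, then COLD) and 1.51 and 4.72 RPKM in S.AND. Over the loci past the filter, the median log2 cold ratio was -0.05 (ERY) and 0.32 (S.AND), and 11 of the 19 loci past it in both cultivars (57.9%) had the same direction, against 76.7% of all genes.

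Between cultivars 4 of the 22 further loci were at least 2-fold lower in S.AND in CONTROL and 3 in COLD, and 0 were higher, where 7.90% and 6.91% of all genes were lower and 11.2% and 6.85% higher. The widest gap was at LOC_Os07g30240, with 35.6 RPKM (CONTROL) and 34 RPKM (COLD) in ERY and 2.56 RPKM (CONTROL) and 4.08 RPKM (COLD) in S.AND, which is 13.9-fold lower in S.AND in CONTROL and 8.35-fold lower in COLD. At LOC_Os06g41050 the means were 2.55 RPKM under CONTROL and 1.76 under COLD in ERY, with 0.544 and 0.665 RPKM for the same pair in S.AND. The median log2 ratio of S.AND over ERY over the 22 loci was -0.14 in CONTROL and -0.01 in COLD, so the low loci were few and the middle of the list lay near 0.

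Genes of the surrounding anther wall, listed by the stage at which they act, were compared with the meiosis genes between the same groups. These lists and the pollen lists below were chosen with earlier results of these data known. Of 5 genes of the early anther wall and tapetum, 1 was at least 2-fold lower in S.AND CONTROL, OsTDL1A, which encodes a small secreted ligand, and 0 were higher, against 7.90% and 11.2% of all genes. Its receptor kinase gene MSP1, which limits the number of germ cells, had CONTROL means of 37.3 RPKM in ERY and 44.2 in S.AND. GAMYB, a gibberellin-regulated transcription factor of the tapetum, had CONTROL means of 206 RPKM (ERY) and 224 RPKM (S.AND). In CONTROL the early genes therefore lay near the same level in both cultivars, apart from OsTDL1A, with 8.73 RPKM for ERY and 3.58 for S.AND.

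Pollen wall genes of the microspore stage, which make or move the lipids of sporopollenin, the outer wall polymer of pollen, stood on the other side. Of 10 such genes, 9 were higher by 2-fold or more in S.AND than in ERY at each temperature, against 11.2% of all genes in CONTROL and 6.85% in COLD, with a median log2 ratio of 2.75 in CONTROL and 1.79 in COLD. The exception was OsC6, a lipid transfer protein gene, with CONTROL means of 25952 RPKM for ERY and 24571 for S.AND. Of 5 later tapetum regulators, 2 were higher by 2-fold or more in S.AND at each temperature, beside the same shares of all genes: PTC1, a PHD finger gene of tapetal cell death, and OsMYB103. The 4 pollen maturation genes, which act later still, did not share that direction. In CONTROL all 4 ratios were below 1, with a median log2 ratio of -0.48. By 2-fold 0 of them were higher there and 1 was lower, OsUGP2, against 11.2% and 7.90% of all genes. In COLD their median was -0.09. Cultivar and anther stage cannot be told apart in these samples, because the RNA of each cultivar comes from 1 sampling stage, matched by anatomy, and RNA of other stages was not analysed here.

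**Figure D3:**
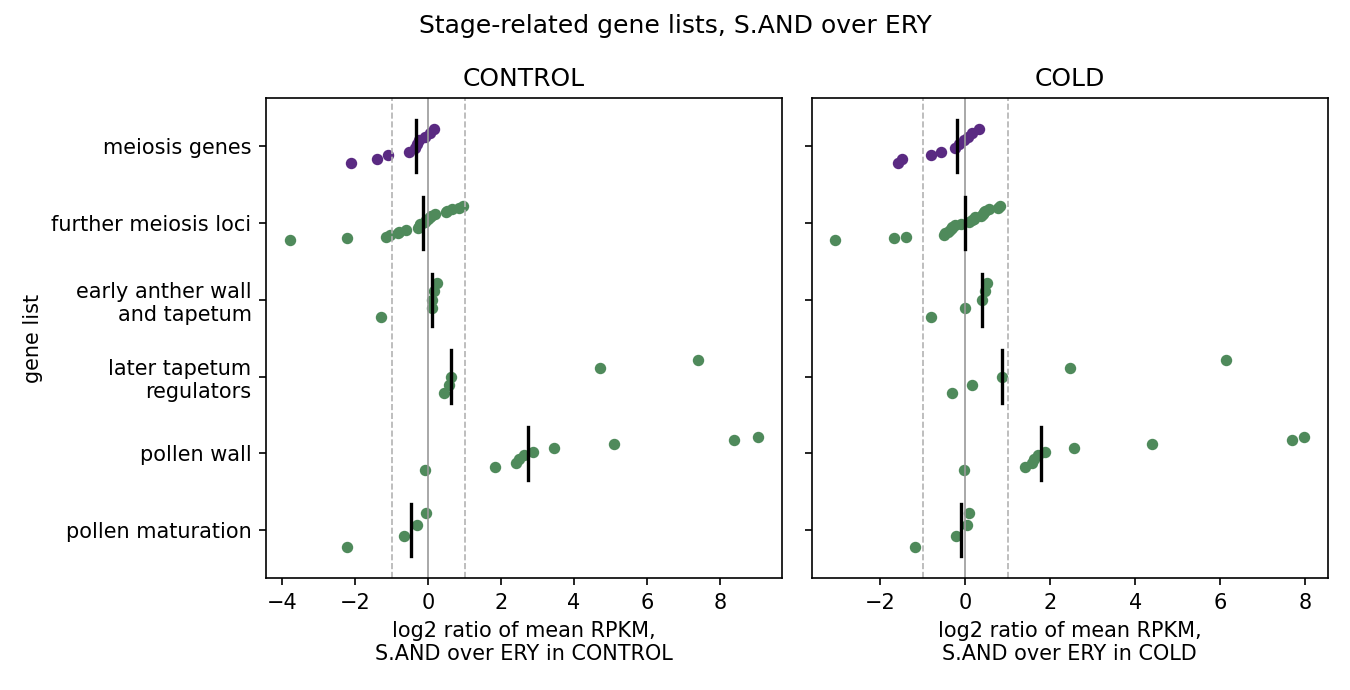
Log2 ratio of mean RPKM, S.AND over ERY, in CONTROL (left) and COLD (right) for each gene of the lists named on the vertical axis; black bars mark the list median and dashed lines 2-fold. Medians of the 10 meiosis genes lie at -0.34 and -0.19, and those of the 10 pollen wall genes at 2.75 and 1.79.

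The cold night itself was described for the pollen wall genes in the same way. All 10 pollen wall genes were lower in S.AND COLD than in S.AND CONTROL, with a median log2 ratio of -0.73. Of them 1 was past 2-fold, NP1, where 9.22% of all genes were lower by that measure. Of the 10 meiosis genes 6 were higher in S.AND COLD, the same count as in ERY. The median log2 ratio of all genes in S.AND was 0.00. In ERY 0 of the 8 pollen wall genes past the filter reached 2-fold, where 8.19% of all genes were higher and 6.66% lower. Their median log2 ratio was 0.17, beside 0.06 for the meiosis genes. These S.AND ratios share their control samples with each other and are given side by side only.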

How the data were processed

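Members and gene lists were chosen with earlier results of these data known. The authors read poly(A) RNA of 12 samples, mapped it in CLC Genomics Workbench 4.7.1 to the MSU 7.0 gene models, and deposited mean RPKM per group; each column summed to about 1000000. The table holds 0 columns of values per sample, and therefore replicate spread was not computed and no test was run; the depth of each sample was not analysed here. The deposited table also holds 4 columns of the authors' comparisons within each cultivar, a fold change given as a signed score and an FDR p-value from Baggerley's test, which were not used.

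Ratios of the deposited means were taken with no pseudocount, for genes whose higher mean was 1 RPKM or more, and counted at 2-fold over the whole table. Named were all 10 members and, from other lists, genes of high mean or past 2-fold; no search for genes of like pattern was made over 4 means. Of the further meiosis loci, 1 was dropped after its value was seen, because its identity was in doubt. Alternatives were a pseudocount, other filters and folds, and rescaled columns. Of the table's identifiers, 0 were found in the reference table, so no coordinates or sequences are printed. Code was tested on simulated data and ran in Python 3.11.15, NumPy 2.4.6, pandas 2.3.3 and matplotlib 3.10.9.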

Additional observations from a re-analysis of the deposited data

How the results depend on the processing

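No paired analysis was possible because the columns are group means and carry no replicate numbers, and for the same reason no replicate could be left out. The share of all genes past the threshold was counted only in the main setting, so the counts below have no background to be read against. For the cold night in ERY, 2 genes passed a fold of 1.5, MER3 higher and OsDMC1A lower, where 0 passed 2-fold. The quartiles of the log2 ratio of all genes there were -0.31 and 0.37. For the cold night in S.AND, the count of 2 became 0 with RPKM + 1, 0 with at least 5 RPKM in the higher group, which leaves 5 genes and removes ZEP1 and MER3, and 0 at a fold of 3. For S.AND over ERY in CONTROL, the count of 3 became 1 with at least 5 RPKM and 1 at a fold of 3, and the median log2 ratio of -0.34 became -0.23 with RPKM + 1 and -0.086 with at least 5 RPKM. For S.AND over ERY in COLD, the count of 2 became 1 with RPKM + 1, 1 with at least 5 RPKM and 0 at a fold of 3. Among 308 values of single genes under the alternatives, 10 no longer passed the threshold and 3 newly passed it. Only genes past 2-fold in the main setting could lose it, so most of the 308 could not, and 308 is not the base of the 10. Genes removed by the filter of 5 RPKM are not among the 308. They include ZEP1 and MER3 for the cold night in S.AND, and PAIR1 for S.AND over ERY at both temperatures. ZEP1 was also removed for S.AND over ERY in CONTROL. Settings that change only the filter or the fold leave the ratios themselves as they were. The largest move was that of ZEP1 for S.AND over ERY in CONTROL, from -2.12 to -1.33 with RPKM + 1. Rescaling the columns without their 10 highest genes, or centring on the median gene, shifted every log2 ratio alike, by -0.037 to -0.0015. The depth of each sample was not analysed here, so no counting error is given for levels under 10 RPKM.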

Other observations

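Several genes of the tapetum and pollen wall had means under 3 RPKM in ERY and above 10 RPKM in S.AND. OsPKS2, a polyketide synthase of the sporopollenin pathway, had 0.65 RPKM (CONTROL) and 0.76 RPKM (COLD) in ERY and 343 RPKM (CONTROL) and 191 RPKM (COLD) in S.AND. OsMYB103, a transcription factor of the tapetum, had 0.185 RPKM under CONTROL and 0.158 under COLD in ERY, with 31.2 and 11.2 RPKM for the same pair in S.AND. NP1, needed for the pollen wall, had 0.234 and 0.172 RPKM in ERY (CONTROL, then COLD) and 78.7 and 35.7 RPKM in S.AND. PTC1 had 1.42 RPKM (CONTROL) and 2.97 RPKM (COLD) in ERY and 37.0 RPKM (CONTROL) and 16.4 RPKM (COLD) in S.AND. These gaps were wider than that of any of the 10 meiosis genes, the widest of which was 4.33-fold at ZEP1.

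OsUGP2, a UDP-glucose pyrophosphorylase gene listed under pollen maturation, ran the other way, with 44.8 RPKM under CONTROL and 38.1 under COLD in ERY, with 9.58 and 16.8 RPKM for the same pair in S.AND. It was 4.67-fold lower in S.AND in CONTROL and 2.27-fold lower in COLD. TIP3, a later tapetum regulator, was the gene of its list with the highest cold ratio in ERY, a 3.23-fold difference between 7.41 RPKM (CONTROL) and 24.0 RPKM (COLD), beside 11.1 and 19.3 RPKM in S.AND.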
